A study of Mus musculus with 2 samples.

Results

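Esm1, Apln, Aplnr and Plaur are 4 of the 32286 features counted in sorted mouse lung endothelial cells, and were found by their gene symbols. Lung cells that carried the tdTomato reporter under VE-cadherin-cre were sorted and profiled by droplet single-cell RNA sequencing (10x Genomics 3' chemistry) in a study of pulmonary endothelium in a mouse model of hereditary hemorrhagic telangiectasia. There were 2 libraries, 1 for each group, called aWT and aKO in the sample titles. Both came from C57BL/6J mice 10 to 12 weeks old. VE-cadherin-cre acts in endothelial cells, and both groups carried it together with the reporter. The labels do not name the gene that was deleted, the form of the cre, any inducing agent, the sex or the number of animals in a library. With 1 library per group nothing between the groups could be tested, so all differences below are differences between these 2 libraries, and every interval covers counting error only.

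Esm1 (endocan) is a secreted proteoglycan that marks the tip cells leading a vascular sprout and is induced by VEGF. Apln encodes apelin, a secreted peptide, and Aplnr its G protein-coupled receptor; in the lung, apelin is known as a product of aerocytes, the capillary cells specialised for gas exchange, and the receptor as a marker of general capillary cells, which maintain and repair the capillary bed. Plaur encodes the receptor of urokinase, which focuses plasminogen activation at the cell surface and is used by migrating cells. ALK1, encoded by Acvrl1, is the receptor of BMP9 on endothelial cells, and loss of a human copy causes a form of hereditary hemorrhagic telangiectasia.

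On build GRCm38, the GENCODE M21 annotation places Esm1 on the plus strand of chromosome 13 from 113209659 to 113218098, with 3 exons. Apln lies on the minus strand of chromosome X from 48025146 to 48034853 (3 exons), Aplnr on the plus strand of chromosome 2 from 85136225 to 85139923 (2 exons in its longest transcript), and Plaur on the plus strand of chromosome 7 from 24462484 to 24475968 (7 exons in its longest transcript). The promoters of Esm1 and Plaur are shown because these genes differed most between the libraries, in opposite directions. Each covers 250 bases before to 50 after the RefSeq start on GRCm38.p6 (Esm1 chr13:113209409-113209708, Plaur chr7:24462233-24462532, both on the plus strand) and is written 5' to 3'. Capitals mark letters of a searched motif on either strand.

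Esm1 promoter: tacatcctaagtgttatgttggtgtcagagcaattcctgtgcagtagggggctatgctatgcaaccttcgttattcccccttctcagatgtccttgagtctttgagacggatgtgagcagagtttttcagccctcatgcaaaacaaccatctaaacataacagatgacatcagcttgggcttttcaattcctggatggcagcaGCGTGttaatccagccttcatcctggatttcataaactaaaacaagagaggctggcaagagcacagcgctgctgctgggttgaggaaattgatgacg

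Plaur promoter: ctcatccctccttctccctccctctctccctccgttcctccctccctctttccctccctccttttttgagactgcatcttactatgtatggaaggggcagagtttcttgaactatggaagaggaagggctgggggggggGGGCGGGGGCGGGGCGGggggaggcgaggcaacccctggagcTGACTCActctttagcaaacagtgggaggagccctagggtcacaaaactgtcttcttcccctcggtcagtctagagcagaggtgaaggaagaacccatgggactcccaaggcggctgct

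The motifs searched were TGACTCA (AP-1), ACGTG or GCGTG (hypoxia response core), GGCGCC (a GC element bound by BMP SMADs), CCGGAAG (ETS), GTAAACA (forkhead), GGGCGG (Sp1 box) and CACGTG (E-box, which contains the hypoxia core). The Plaur window held 1 AP-1 match, as did 5.20% of 32851 promoter windows of the same length, and 3 Sp1 boxes that overlap or adjoin each other, a motif found in 35.7% of windows. The Esm1 window held 1 hypoxia core, which 43.8% of windows hold, and no other of these motifs. GGCGCC was in neither window and in 11.9% of all windows. The Apln window (chrX:48034804-48035103, minus strand) held 1 Sp1 box and none of the others. These matches describe letters only.

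The aWT library held 72270260 UMIs (unique molecular identifiers, counted RNA molecules) in 15996 barcodes, and the aKO library 75950364 in 11045. After filters, 14864 and 10415 cells remained, of which 14622 and 10319 were endothelial-like, with a median of 3890 and 5755 UMIs per cell. Each endothelial-like cell was placed by its marker UMIs in the class whose score led by 0.3 or more: general capillary (7115 aWT and 2431 aKO cells), aerocyte (2490 and 1167), arterial (1479 and 1231), venous (1516 and 1307) or lymphatic (559 and 1809). The others were kept apart as mixed and made up 10.0% of the endothelial-like cells in aWT and 23.0% in aKO. A further 924 aWT cells (6.32%) and 1133 aKO cells (11.0%) lay just above that lead, between 0.3 and 0.5. The general capillary markers had a median of 144 UMIs per 10000 in general capillary cells of aWT and 110 in those of aKO, and no more than 46.2 in the arterial, venous, aerocyte and lymphatic classes. There were 48 barcodes found in both libraries, 43 of them among the kept cells of each, and leaving them out moved none of the 17 ratios of the 4 genes beyond its counting interval (Esm1 in endothelial-like cells had a log2 ratio of -2.81 with them and -2.80 without). CPM is the UMIs of a gene scaled to the same total in each sum. Xist had 3.60 CPM in endothelial-like cells of aWT against 731 CPM in aKO, so sex and group cannot be told apart, which bears on X-linked Apln in particular. In the same cells Acvrl1 had 1023 CPM (aWT) and 487 CPM (aKO), the BMP9 co-receptor Eng 1073 and 466 CPM, and tdTomato 117 and 88.9 CPM.

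The libraries separated in an unsupervised clustering made without the 4 genes: 85.1% of kept cells lay in clusters drawn to 90% or more from 1 library. General capillary cells of aWT were mainly in cluster 0 (87.4%) and those of aKO in cluster 1 (84.2%). Cluster 1 had the venous marker Hdac9 and no general capillary marker among its top 10 genes. By its mean class scores it was still counted as general capillary where clusters replaced marker UMIs. That name is uncertain, so values by cluster number are given beside those by class. Aerocytes were in cluster 2 (82.4% of aWT) and cluster 10 (79.9% of aKO), and venous cells in cluster 4 (88.9% of aWT) and cluster 9 (68.1% of aKO). Arterial cells were in cluster 7 (64.4% of aWT) and cluster 3 (60.2% of aKO), and both libraries contributed to arterial cluster 12. Cluster 7 had no arterial marker among its top 10 genes. By class, 48.8% of the cells of cluster 3 were arterial, 34.9% mixed and 10.5% venous. The arterial name of clusters 7 and 3 is thus uncertain as well. Lymphatic cells shared clusters 8 and 11. Free RNA was gauged in alveolar type 2-like cells, epithelial cells that should lack endothelial RNA: 104 aWT cells with a median of 15839 UMIs and 17 aKO cells with a median of 16012.

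Over all endothelial-like cells, Esm1 had 58.2 CPM in aWT against 4.04 CPM in aKO, a 14.4-fold lower level (12.8 to 16.3, 95% counting interval). Plaur went the other way, from 130 CPM in aWT to 307 CPM in aKO, 2.36-fold higher (2.30 to 2.42). Apln was at 47.5 and 26.8 CPM and Aplnr at 62.6 and 32.6 CPM, 1.77-fold and 1.92-fold lower in aKO. A gene counted as past the size rule when it had 10 CPM or more in 1 library and differed 2-fold or more after 5 CPM was added to both values. By that rule 2.45% of the 9620 genes measured were lower and 4.71% higher in aKO. Esm1 was on the lower side, with only 8 genes showing a more negative ratio, and Plaur on the higher side, with 281 genes above it. Apln (log2 ratio -0.72) and Aplnr (-0.85) did not reach 2-fold. These totals also reflect which classes the libraries hold: with the 5 classes weighted equally the log2 ratio was -0.13 for Apln and -0.27 for Aplnr. From sums over a class, fewer cells carrying a transcript and fewer copies per cell are given separately below.

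**Figure D1:**
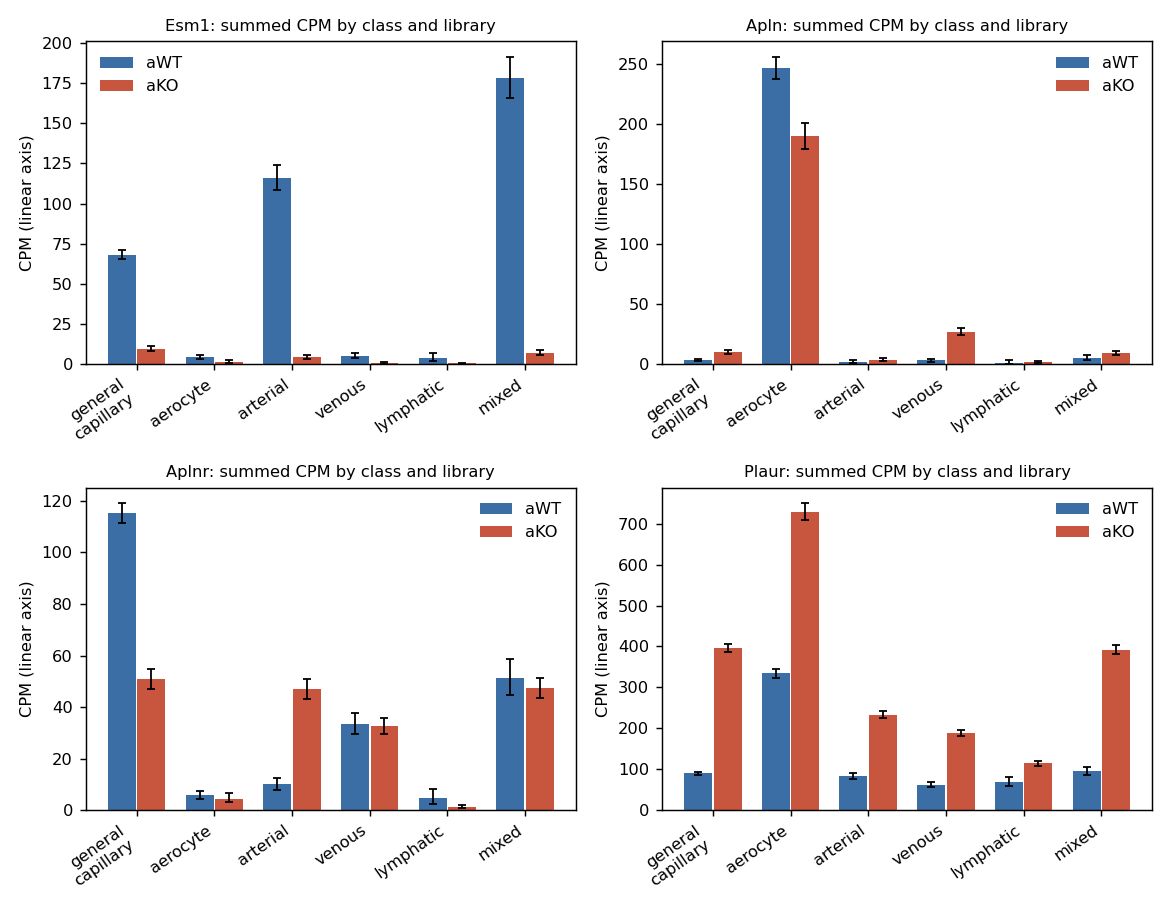
Level of each gene (vertical axis, CPM from summed UMIs, linear scale) in the 5 endothelial classes and the mixed cells (horizontal axis), with aWT in blue and aKO in red and bars of error showing exact Poisson 95% intervals. Esm1 stands in aWT general capillary, arterial and mixed cells, Apln in aerocytes, and Aplnr in aWT mainly in general capillary cells. Plaur is higher in aKO than in aWT in each class.

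Esm1 in aWT was highest in arterial cells, at 116 CPM (109 to 124), followed by general capillary cells at 68.1 CPM (65.1 to 71.2). Venous, aerocyte and lymphatic cells were at 5.09, 4.11 and 3.97 CPM, and these 3 did not differ beyond counting error. In aKO the order was general capillary at 9.38 CPM (7.85 to 11.1), arterial at 4.34 CPM (3.23 to 5.71), aerocyte at 1.09, venous at 0.537 and lymphatic at 0.302. Esm1 was thus 26.7-fold lower in aKO arterial cells (20.1 to 36.2) and 7.26-fold lower in aKO general capillary cells (6.08 to 8.73). In arterial cells 4 of the 9442 genes measured had a more negative ratio, where 3.28% of genes were past the size rule on the lower side. In general capillary cells 22 of 9103 genes did, where that share was 2.53%. By cluster number, Esm1 stood at 65.8 CPM in cluster 0 (6792 aWT cells) and 6.64 CPM in cluster 1 (2994 aKO cells). The 37 aKO cells in cluster 0 had 81.6 CPM (46.7 to 133), no lower than the aWT cells there, from 16 UMIs in 5 cells. It stood at 241 CPM in cluster 7 (1360 aWT cells) and 4.92 CPM in cluster 3 (1523 aKO cells). In arterial cluster 12, led by Mgp and Sfrp1, the 285 aWT cells held 15 Esm1 UMIs (7.73 CPM) and the 350 aKO cells none. Cluster 15, also shared, was left unnamed, with 3 mesenchymal markers among its top genes. There Esm1 was level, at 60.2 CPM (44.1 to 80.3) in 100 aWT cells and 60.0 CPM (45.6 to 77.3) in 116 aKO cells.

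Fewer aKO cells carried the transcript. With each cell thinned to 2000 UMIs, 5.93% of aWT general capillary cells (5.36 to 6.54, exact Clopper-Pearson) and 1.32% of aKO cells (0.895 to 1.88) had an Esm1 UMI. The values before thinning were 8.46% and 2.47%, at median depths of 3736 and 5466 UMIs. Among arterial cells the thinned shares were 11.3% and 0.518%, and the unthinned ones 15.4% and 0.894%, at median depths of 4469 and 8626. Of the aWT alveolar type 2-like cells, 1.92% (2 of 104) had an Esm1 UMI before thinning and 0 of 102 after it, which allows a share of up to 2.94%. The unthinned shares of aerocyte, venous and lymphatic cells in aWT were 1.41%, 1.58% and 1.61%, at median depths of 4394, 5262.5 and 3948 UMIs. The alveolar type 2-like cells were deeper, with a median of 15839, so unthinned shares cannot be set against theirs. After thinning the shares were 0.699%, 0.680% and 0.937%, under the limit of 2.94%, so they cannot be told apart from background. By level the alveolar type 2-like cells had 1.30 CPM of Esm1 (0.158 to 4.70). Single aerocyte and venous cells held up to 8 Esm1 UMIs. The 17 alveolar type 2-like cells of aKO held no Esm1 UMI, which allows a share of up to 17.6% and is too wide to set a background for the aKO shares. Cells that carried Esm1 carried much of it: 186 aWT general capillary cells with 3 or more UMIs, 2.61% of the class, held 72.9% of its Esm1 UMIs, and the highest cell held 40. In aKO arterial cells 2 cells, with 21 and 19 Esm1 UMIs, held 78.4% of them, and without them the level was 0.938 CPM. In aKO general capillary cells the 2 highest held 25.2%, and without them the level was 7.02 CPM. Of the 123 aKO endothelial-like cells with an Esm1 UMI, 105 (85.4%) also had an Xist UMI, against 87.7% of all aKO endothelial-like cells and 0.390% of aWT ones.

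Between the general capillary and arterial classes, Esm1 had its highest levels where the 2 scores met. Among aWT cells whose leading scores were these 2, the level was 17.7 CPM where the general capillary score led by over 2, 57.9 CPM for a lead of 1 to 2 and 130 CPM for a lead of 0.3 to 1. It was 283 CPM in the 608 mixed cells between them. On the arterial side it was 299 CPM for an arterial lead of 0.3 to 1 and 288 CPM for 1 to 2, then 131 CPM beyond 2. In aKO the same cells were few. The level was 10.4 CPM in 55 cells, 15.4 CPM in 139 cells and 21.9 CPM in 118 mixed cells (4.49 CPM without the 2 highest cells). In the 31 aKO cells with an arterial lead of 0.3 to 1 it was 200 CPM (146 to 268), but 40 of the 45 UMIs came from 2 cells, with 21 and 19, and without them the level was 23.5 CPM. The axis uses Hey1 and other arterial markers that are themselves lower in aKO, so equal scores do not mark equal cells in the 2 libraries. Aplnr ran in the opposite direction along it in aWT, from 135 CPM at the general capillary end to 54.6 CPM in the mixed cells and 11.9 CPM for an arterial lead of 1 to 2, with 40.9 CPM in the last 38 cells.

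**Figure D2:**
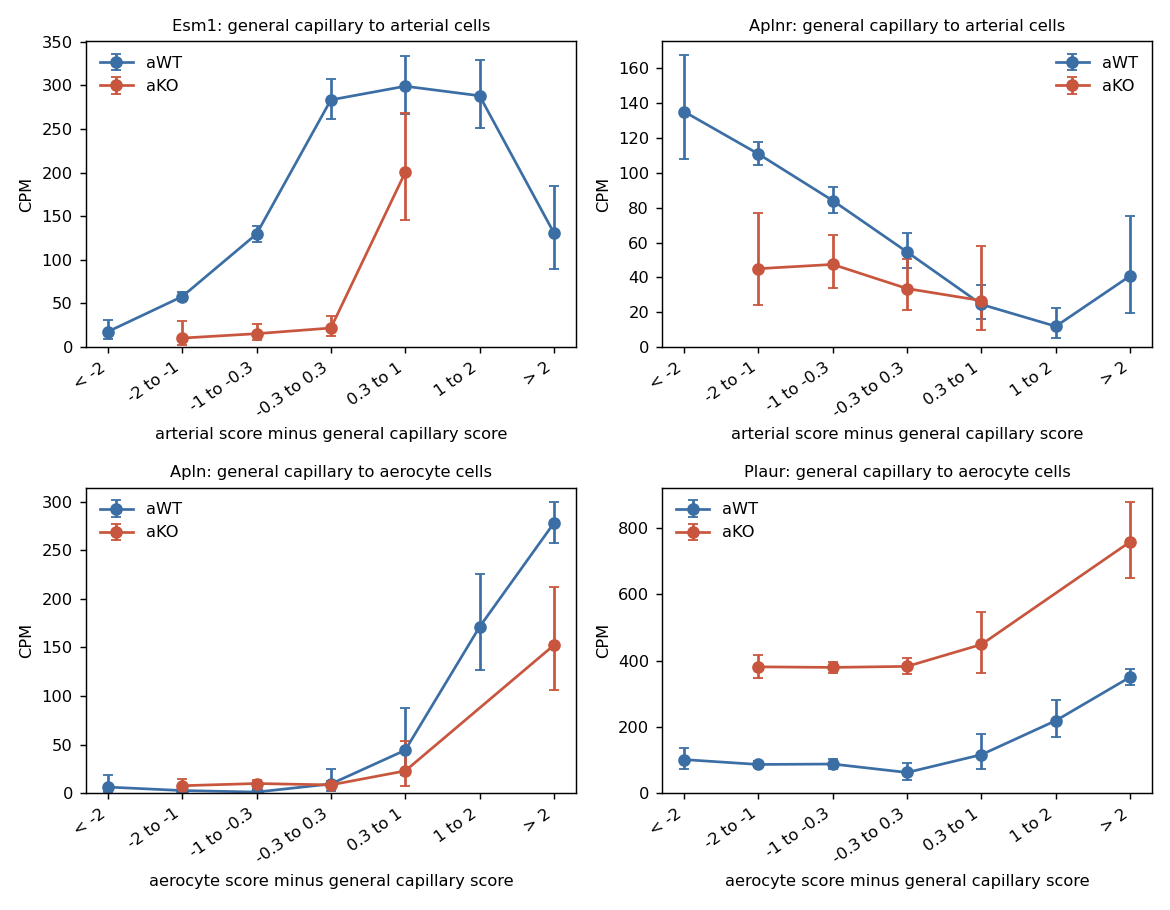
Level of each gene (CPM, linear axis, exact Poisson 95% intervals) in bins of the difference between 2 class scores (horizontal axis, in SD units of the mean marker score), for cells whose leading scores are those 2 classes; aWT in blue, aKO in red, bins under 20 cells not drawn. Esm1 in aWT is at 283 to 299 CPM near the boundary of general capillary and arterial cells, and Apln and Plaur are highest at the aerocyte end.

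Other genes separated aWT general capillary cells with an Esm1 UMI (602 cells) from those without (6513). Gzmk, a granzyme of cytotoxic lymphocytes, was at 165 CPM in the former and 0.900 CPM in the latter, 184-fold. Its annotated span on the minus strand of chromosome 13 (113171608 to 113225908) contains all of Esm1, with no exon base in common. Of the 889 Gzmk UMIs in aWT endothelial-like cells, 93.9% lay in cells with Esm1, at 0.244 Gzmk UMIs per Esm1 UMI, and 82.0% of the 100 in aKO did. Reads of the pair cannot be told apart here, since the strand and intron settings of the counting are not given in the sources used, and the Gzmk value is uncertain. The non-coding Gm35533 was 15.3-fold and the transporter gene Slc45a4 14.9-fold higher in cells with Esm1. Next came the oestrogen receptor Esr2 (8.49-fold), the chemokine receptor and tip cell gene Cxcr4 (6.25-fold, 90.3 against 14.4 CPM), the bradykinin receptor Bdkrb2 (5.60-fold), Atp13a3 (4.93-fold) and the adhesion receptor Adgrg6 (4.88-fold). Aplnr was lower in the cells with Esm1, at 65.2 against 121 CPM. After thinning, 36 aWT general capillary cells had UMIs of both Esm1 and Aplnr, where the product of the 2 shares gives 73.5. Cells with Esm1 had a median of 133 general capillary and 21.9 arterial marker UMIs per 10000, and those without 145 and 13.9.

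Over the 10 class-by-library sums, the genes whose log2 levels ran most like Esm1, among 5622 compared, were Adam23 (Pearson r = 0.95), Prkacb (0.94), the Notch and BMP target Hey1 (0.93), Gm35533 (0.93) and Stxbp5 (0.92). Adam23 had 80.9 and 32.4 CPM in aWT arterial and general capillary cells and 11.6 and 9.31 CPM in aKO. The 10 points share 2 libraries, and Hey1 is one of the arterial markers.

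**Figure D3:**
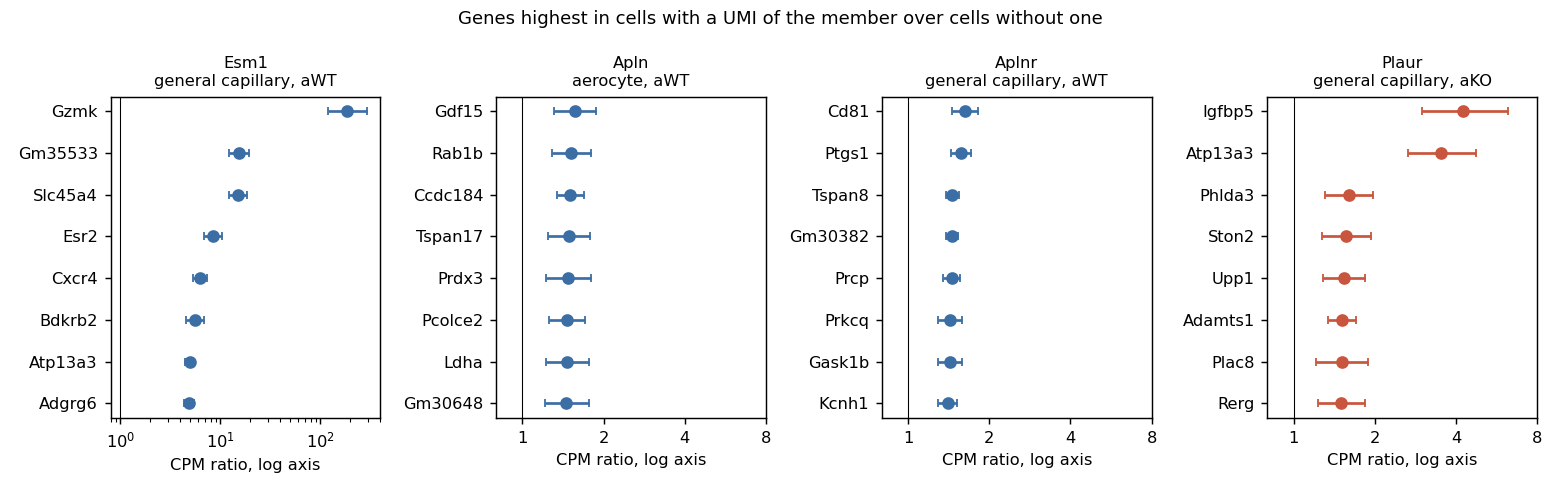
Ratio of summed CPM in cells with a UMI of the named gene over cells of the same class and library without one (horizontal axis, log scale, 95% counting intervals), for the 8 genes with the highest ratio; the class and library head each panel, blue for aWT and red for aKO. The ratios reach 184 for Gzmk in cells with Esm1, which overlaps it in the genome, and are at most 1.63 for the genes of the Apln and Aplnr panels.

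Apln was an aerocyte transcript in both libraries. In aWT aerocytes it stood at 247 CPM (238 to 256), 78.1-fold over the next class, and 94.9% of the library's endothelial Apln UMIs were in aerocytes, which gave 18.2% of all endothelial UMIs. General capillary, venous, arterial and lymphatic cells were at 3.17, 3.07, 1.88 and 1.08 CPM, each next to the other within counting error. In aKO, aerocytes were at 190 CPM (180 to 201), venous cells at 26.8, general capillary cells at 10.1, arterial cells at 3.66 and lymphatic cells at 1.51 CPM. Of the endothelial Apln UMIs of aKO, aerocytes held 65.0%, venous cells 18.6%, general capillary cells 7.52% and mixed cells 5.44%. The aerocyte level was 1.30-fold lower in aKO (1.21 to 1.39, log2 ratio -0.37) and did not reach 2-fold, where 1.54% of 8838 genes measured in aerocytes were past the rule on the lower side. By cluster number the values were 263 CPM in cluster 2 (aWT) and 199 CPM in cluster 10 (aKO). In the small aerocyte cluster 17, shared by both libraries, Apln was at 256 CPM (140 to 429) in 38 aWT cells. The 77 aKO cells there had 258 CPM (196 to 333). In cluster 15, unnamed and shared, Apln was at 10.5 CPM (4.52 to 20.6) in 100 aWT cells. The 116 aKO cells of cluster 15 had 115 CPM (94.6 to 138), from 113 UMIs in 24 cells. After thinning, 33.9% of aWT and 26.8% of aKO aerocytes had an Apln UMI; before it, 51.3% and 46.6%, at median depths of 4394 and 5271.

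Of the classes other than aerocytes, venous cells passed the size rule for Apln. Their level in aKO was 8.70-fold higher (5.84 to 13.5, log2 ratio 1.98), past the size rule on the higher side with 5.06% of 9541 genes. The 349 Apln UMIs of aKO venous cells were concentrated: 42 cells with 3 or more held 80.2% of them, and the highest cells held 51 and 35. Without these 2 cells the level was 20.2 CPM. The 42 cells had a median of 19526 UMIs against 8022 in venous cells without Apln, a median of 60.1 venous marker UMIs per 10000 against 65.0, and 4.69 aerocyte marker UMIs against 6.47. Venous cells with an Apln UMI made up 2.57% of aKO and 0.529% of aWT after thinning (7.35% and 1.52% before it, at median depths of 8533 and 5262.5), and 1.96% of aWT alveolar type 2-like cells had one after thinning (2 of 102; 4.81% before). In general capillary cells the level was 3.17 CPM in aWT against 10.1 CPM for aKO (log2 ratio 0.89, within 2-fold by the rule). There the shares after thinning were 0.532% and 1.81%, both under the alveolar type 2-like share of aWT, while lymphatic cells of aKO had 0.187%. The 17 alveolar type 2-like cells of aKO held no Apln UMI either. Lymphatic cells, with 3 and 20 UMIs, did not differ beyond counting error (ratio 1.40, 0.414 to 7.33). The part of cell depth in the venous level was not tested.

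Ratios between aWT aerocytes with and without an Apln UMI were small. The cells without one were shallower, so this split cannot show whether cells that lack Apln differ. In aWT aerocytes the 1277 cells with a UMI, against 1213 without, had a median of 5286 against 3370 UMIs and 127 against 112 aerocyte marker UMIs per 10000. The highest ratios were for the stress cytokine Gdf15 (1.57-fold), Rab1b (1.52), Ccdc184 (1.502), Tspan17 (1.48), Prdx3 (1.48), the collagen-processing enhancer Pcolce2 (1.46), the glycolytic enzyme Ldha (1.46) and Gm30648 (1.46). Both Apln and Plaur were found in 338 thinned aWT aerocytes, where the product of their shares gives 324. The genes most like Apln over the 10 sums were Glrx5 (r = 0.98), Cdipt (0.98), Papss1 (0.97), Zfp706 (0.97) and Tspan31 (0.97), and each of these was highest in the aerocyte sums.

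Aplnr, the apelin receptor, was highest in general capillary cells in aWT, at 115 CPM (111 to 119). General capillary cells of aKO had 50.7 CPM (47.0 to 54.6). In aWT venous cells followed at 33.5 CPM, then arterial at 10.0, aerocyte at 5.77 and lymphatic cells at 4.70 CPM, the last 2 within counting error. In aKO arterial cells, at 46.9 CPM (43.1 to 51.0), did not differ from general capillary cells beyond counting error, and venous, aerocyte and lymphatic cells were at 32.7, 4.53 and 1.36 CPM. The general capillary level was 2.27-fold lower in aKO (2.09 to 2.47, log2 ratio -1.11), past the size rule. By cluster number it was 118 CPM in cluster 0 and 52.8 CPM in cluster 1 (49.5 to 56.4). Aplnr was higher than that in aKO cells of cluster 3, at 63.0 CPM (58.7 to 67.5), and of unnamed cluster 15, at 93.5 CPM (75.4 to 115). After thinning, 19.4% of aWT and 9.80% of aKO general capillary cells had a UMI (31.5% and 21.0% before it). In the alveolar type 2-like cells 1.96% did after thinning (2 of 102) and 7.69% before.

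In arterial cells the direction was the other one. Aplnr was 4.67-fold higher in aKO (3.66 to 6.03, log2 ratio 1.79), past the rule on the higher side with 3.38% of genes. Thinned shares were 2.06% in aWT, close to the alveolar type 2-like share, and 7.51% in aKO; before thinning they were 4.06% and 19.2%. Cells of cluster 3 held 93.5% of the Aplnr UMIs of aKO arterial cells (515 UMIs in 741 cells). By cluster number, Aplnr was at 63.0 CPM in cluster 3 (aKO, all classes) and 11.1 CPM in cluster 7 (aWT), while in arterial cluster 12, which both libraries share, Aplnr had 3 UMIs in aWT (1.55 CPM) and 8 UMIs in aKO (2.16 CPM). Within the aKO arterial class, the 68 cells with 3 or more Aplnr UMIs had a median of 38.5 arterial marker UMIs per 10000 against 74.4 in cells without Aplnr, and 20.1 against 12.8 general capillary ones. Venous cells were nearly level, at 33.5 and 32.7 CPM (ratio 0.976, 0.838 to 1.14), where 2.84% of genes were past the rule on the lower side.

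In aWT general capillary cells, the 2238 cells with Aplnr had a median of 4179 UMIs, against 3508 in the 4877 without. The ratios were highest for the tetraspanin Cd81 (1.63-fold), the cyclooxygenase Ptgs1 (1.57), Tspan8 (1.46), Gm30382 (1.46), the peptidase Prcp, which can trim apelin peptides (1.45), Prkcq (1.44), Gask1b (1.43) and Kcnh1 (1.40). Over the 10 sums the genes most like Aplnr were Arhgef26 (r = 0.92), N4bp1 (0.91), Traf7 (0.91), H2-Q6 (0.90) and Wfdc1 (0.90). Unlike Aplnr, 4 of these 5 were higher in the general capillary sum of aKO than of aWT, and Traf7 was lower. Arhgef26 stood at 315 and 437 CPM and Wfdc1 at 75.7 and 143 CPM in aWT and aKO.

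Plaur was higher in aKO than in aWT in every one of the 5 classes. Aerocytes had the highest level in both libraries, 334 CPM for aWT (324 to 345) and 729 CPM in aKO (709 to 750). General capillary cells were at 90.6 and 396 CPM, arterial cells at 83.04 and 234, venous cells at 62.3 and 189 and lymphatic cells at 69.3 and 115 CPM. In aWT each neighbour in the order of the last 4 classes was within counting error. The ends were not: general capillary cells (87.1 to 94.1) stood above lymphatic (59.9 to 79.9) and venous cells (57.1 to 67.9). In aKO each step in the order exceeded counting error. The ratio was 4.37-fold in general capillary cells (4.17 to 4.58), 3.03-fold in venous (2.76 to 3.34), 2.81-fold in arterial (2.58 to 3.07), 2.18-fold in aerocyte (2.09 to 2.28) and 1.65-fold in lymphatic cells (1.42 to 1.93). On the scale with 5 CPM added, 4 of the 5 classes were past the rule, and lymphatic cells (log2 ratio 0.69) were not. The shares of genes past it on the higher side were 2.64% in general capillary, 5.06% in venous, 3.38% in arterial, 1.69% in aerocyte and 1.05% in lymphatic cells, and 1.94% of lymphatic genes were past it on the lower side. In general capillary cells 37 of 9103 genes had a higher ratio than Plaur.

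After thinning, Plaur was found in 14.8% of aWT and 50.4% of aKO general capillary cells (25.1% and 74.7% before it) and in 44.5% and 71.1% of aerocytes (64.3% and 84.6%). The alveolar type 2-like share was 3.92% after thinning (4 of 102) and 10.6% before. Without thinning, 35.8% of aKO general capillary cells had 3 or more Plaur UMIs, against 2.33% in aWT, at median depths of 5466 and 3736 UMIs. The part of depth in that contrast was not tested. Clusters with cells of both libraries were not all alike in Plaur. In lymphatic cluster 8, aWT cells had 49.7 CPM of Plaur against 102 CPM in aKO cells, and in arterial cluster 12 they had 44.8 against 130 CPM. In lymphatic cluster 11, with 153 aWT and 727 aKO cells, Plaur was at 98.9 CPM (77.8 to 124) and 111 CPM (102 to 120), within counting error. The 37 aKO cells in cluster 0 had 112 CPM (70.3 to 170), within counting error of the aWT cells there. By cluster number it was 91.7 CPM in cluster 0 and 398 CPM in cluster 1. In cluster 9, mostly aKO venous cells, it was 137 CPM, and in arterial cluster 3 of aKO it was 397 CPM.

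**Figure D4:**
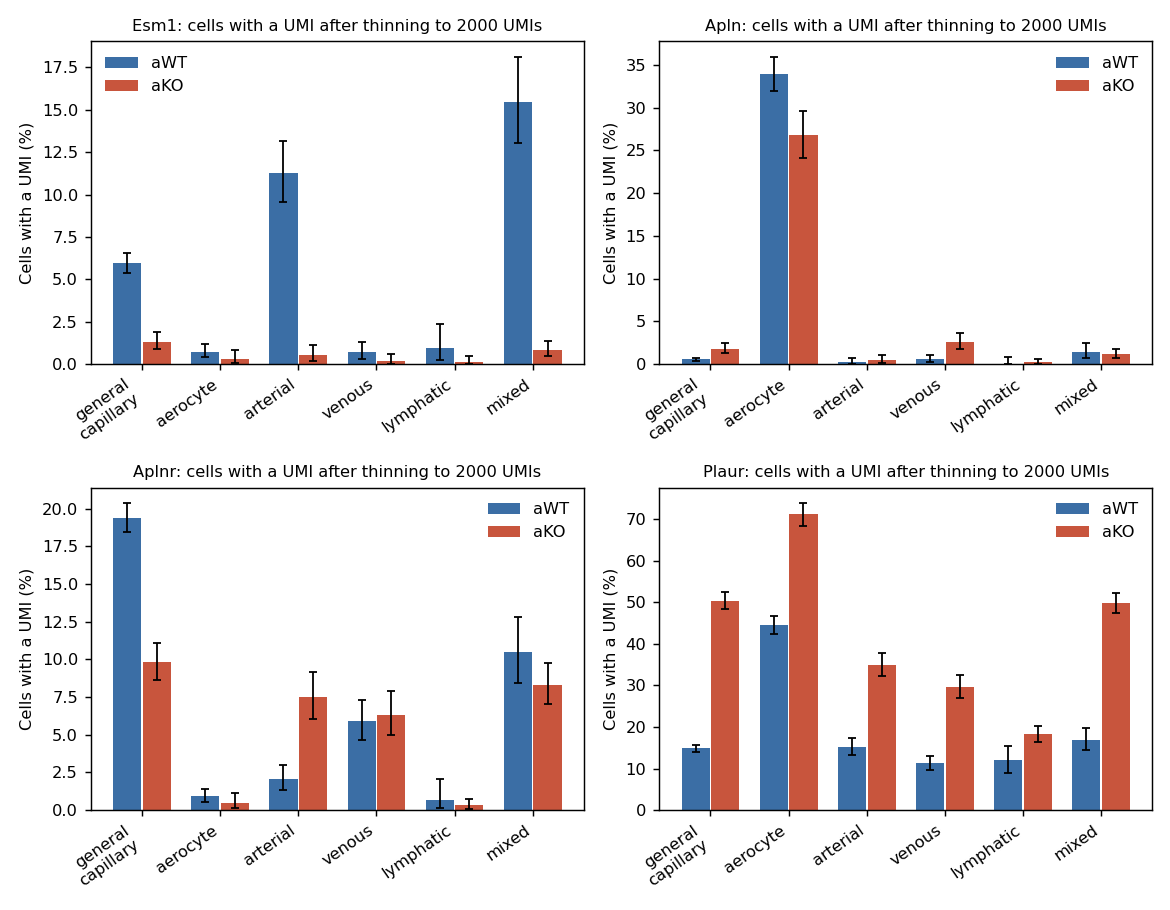
Share of cells with at least 1 UMI of each gene after every cell was thinned to 2000 UMIs (vertical axis, percent, exact Clopper-Pearson 95% intervals) by class (horizontal axis), aWT in blue and aKO in red. Plaur is found in 50.4% of aKO and 14.8% of aWT general capillary cells, while Esm1 is found in 1.32% and 5.93%.

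In aKO general capillary cells the 1817 cells with Plaur had more UMIs than the 614 without, with medians of 5856 and 4156.5. Genes with the highest ratios between them were Igfbp5, which binds insulin-like growth factors (4.25-fold), Atp13a3 (3.51), the p53 target Phlda3 (1.60), Ston2 (1.56), Upp1 (1.54), the secreted protease Adamts1 (1.51), Plac8 (1.51) and Rerg (1.503). Atp13a3 was also among the 8 genes highest in aWT cells with Esm1. Esm1 was at 7.79 CPM in the aKO cells with Plaur and 16.2 CPM in those without, on 88 and 43 UMIs. Both cells with the most Esm1 UMIs were among those without Plaur, and leaving them out gave 7.79 against 3.78 CPM, so the order rests on 2 cells. After thinning, 18 aKO general capillary cells had UMIs of both Esm1 and Plaur, where the product of their shares gives 15.1, and 89 aWT cells did, where the product gives 56.3. The genes most like Plaur over the 10 sums were Sap30l (r = 0.98), Dapk3 (0.97), Snapc5 (0.97), Trappc5 (0.97) and Rnasek (0.97).

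**Figure D5:**
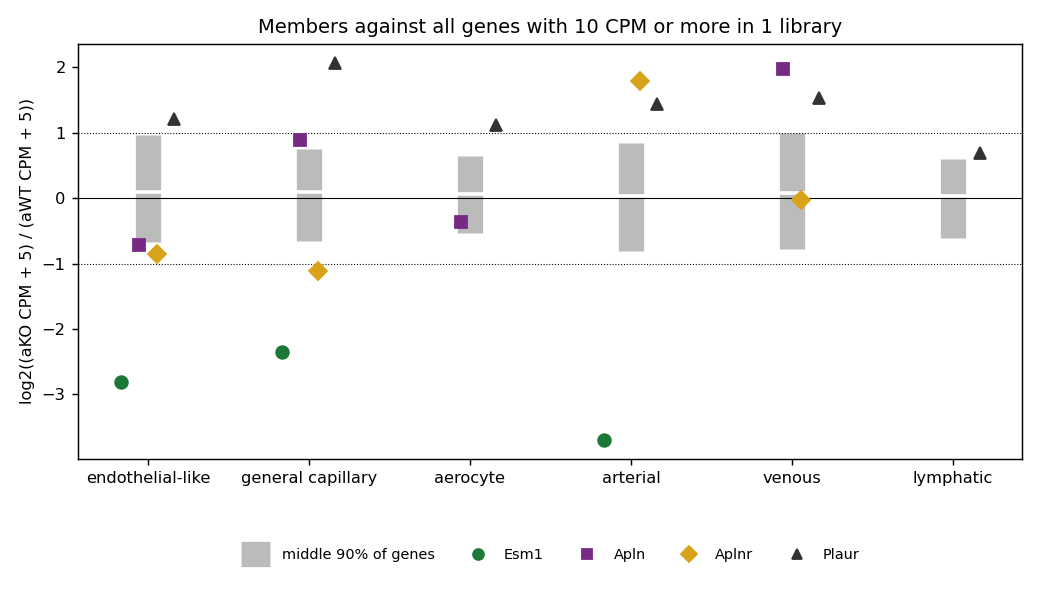
Log2 ratio of aKO over aWT after adding 5 CPM (vertical axis) for the 4 genes (symbols) in all endothelial-like cells and in each class (horizontal axis), over grey bars for the middle 90% of genes with 10 CPM or more in 1 library and a white line at their median; dotted lines mark 2-fold. A gene under 10 CPM in both libraries is not drawn; Esm1 lies below the grey bar and Plaur above it wherever they are drawn.

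Other genes of the same pathways were read from lists chosen with earlier results of these data known, in all endothelial-like cells, beside a median log2 ratio of 0.09 over all genes. Of all 9620 genes measured there, 4.71% were higher and 2.45% lower by the rule. Of 25 tip cell genes other than the 4, 23 were measured, 7 were past the rule on the higher side and 3 on the lower, with a median of 0.11. Trp53i11, a p53-inducible gene, was at 14.6 and 109 CPM in aWT and aKO, the VEGF-C co-receptor Nrp2 at 106 and 330, the sialomucin Cd34 at 173 and 529, and the VEGF co-receptor Nrp1 at 1135 and 389 CPM. Nrp2 and Flt4 are high in lymphatic cells, which made up 17.5% of endothelial-like cells in aKO and 3.82% in aWT. In general capillary cells alone Nrp2 was at 9.99 and 8.09 CPM, while Cd34 was at 87.5 and 693 CPM and Trp53i11 at 12.9 and 153 CPM. Of the tip cell genes, 3 of 19 measured in general capillary cells were past the rule in each direction, with a median of 0.03 beside 0.10 over all genes. Of all genes measured in general capillary cells, 2.64% were past it on the higher side and 2.53% on the lower.

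The second apelin receptor ligand, Apela, had no UMI in endothelial-like cells of either library. Beside 4.71% and 2.45% of all genes, 1 of the 14 apelin pathway genes measured was higher and 1 lower by the rule (median -0.20). They were Nos3, the endothelial nitric oxide synthase, at 54.7 and 180 CPM, and the gap junction gene Gja4, at 164 and 48.8 CPM and one of the arterial markers. Next by size were the G protein subunits Gna13, at 190 and 129 CPM, and Gnai2, at 714 and 970 CPM.

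Of 14 plasminogen activation genes measured beside Plaur, 4 were higher and none lower by the rule (median 0.62). Among all genes 4.71% were higher. S100a10 and Anxa2, which together form a plasminogen receptor on the cell surface, were at 260 and 869 CPM and at 253 and 690 CPM in aWT and aKO. The protein C receptor Procr was at 10.8 and 47.2 CPM and the protease inhibitor Serpine2 at 12.9 and 32.7 CPM. Urokinase itself, Plau, was at 14.8 and 26.3 CPM, within 2-fold. In general capillary cells 1 of 9 measured genes was past the rule on the higher side, where 2.64% of all genes were. It was S100a10, at 203 against 587 CPM. The list median there was -0.06, below that over all endothelial-like cells. In arterial cells 5 of 13 were higher (3.38% of all genes), in venous cells 6 of 14 (5.06%) and in aerocytes 2 of 9 (1.69%). None of 14 was higher in lymphatic cells, and none was lower in any class. The list medians were 0.41 in arterial, 0.47 in venous, 0.16 in aerocyte and 0.18 in lymphatic cells.

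Of 12 measured genes of the BMP9 and ALK1 response, 10 were lower and none higher (median -1.85). Among all genes 2.45% were lower and 4.71% higher, which holds for each list of endothelial-like cells here. The inhibitors of differentiation Id1 and Id3 stood at 1199 and 119 CPM and at 987 and 139 CPM, and the inhibitory SMADs Smad6 and Smad7 at 833 and 136 CPM and at 563 and 94.5 CPM. VEGF signalling genes had 2 higher and 3 lower of 17 measured (median -0.14), among them Vegfa at 301 and 45.5 CPM and Flt4, the VEGF-C receptor, at 103 and 254 CPM. Hypoxia response genes had 2 higher and 2 lower of 12 (median 0.27). Ndrg1 was at 42.1 and 122 CPM, the vasodilator Adm at 5.05 and 18.5 and the hypoxia factor Epas1 at 1865 and 785 CPM. In general capillary cells Ndrg1 was at 13.4 and 20.1 CPM, Adm at 1.62 and 2.08 and Epas1 at 2410 and 1462 CPM. There 1 of 11 measured hypoxia genes was lower by the rule, beside 2.53% of all genes, and none was higher. The list of proteoglycan genes, the family of Esm1, also holds enzyme genes, and had 2 higher and none lower of 8 (median 0.31). These were Sdc1 at 5.93 and 26.5 CPM and Hspg2 at 27.7 and 61.1 CPM. Bgn at 97.6 and 192 and Sdc4 at 28.3 and 36.6 CPM were within 2-fold. In general capillary cells Sdc1 was at 0.774 and 0.358 CPM and Hspg2 at 3.17 and 2.58 CPM. By class, only lymphatic cells had genes of this list past the rule, with 2 of 10 higher, beside 1.05% of all genes.

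The immediate early and stress list, of genes that respond to tissue handling, had 5 of 16 genes lower in aKO and none higher (median -0.51). Among all genes 2.45% were lower. The heat shock genes Hspa1a, Hspa1b, Hspb1 and Dnajb1 were at 2267 and 543, 2252 and 594, 1769 and 641, and 119 and 43.9 CPM in aWT and aKO. In general capillary cells the summed alveolar type 2 markers were at 209 CPM in aWT against 18.6 CPM for aKO, and the alveolar type 1 and airway markers at 282 and 747 CPM. The part of these differences in the results for the 4 genes was not tested.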

How the data were processed

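The authors deposited 1 matrix per library of raw UMI counts, as whole numbers without any scaling. The submitters' processing notes name Cell Ranger 7.2.0 and mm10. The sources used here do not give the annotation release, strand or intron setting. The 4 genes and all lists were chosen with earlier results of these data known.

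Of the barcodes, 15651 (aWT) and 10785 (aKO) had 500 genes or more and no more than 15% mitochondrial UMIs. Scrublet in scanpy 1.11.5, run per library, then removed 787 aWT (5.03%) and 370 aKO (3.43%) barcodes as doublets, with expected rates of 12.8% and 8.84%. Endothelial-like cells had UMIs of 3 or more of 13 endothelial markers and more endothelial than other marker UMIs. Class scores were mean z values of log-scaled marker counts; the markers were fixed and the scoring rule was set after the files were read. The sums of UMIs per class and library were scaled to CPM over all features, with exact 95% intervals. Ratios used 5 CPM added. Shares used cells thinned to 2000 UMIs, leaving out 2269 shallower endothelial-like cells in aWT and 1394 in aKO. Named genes were the 5 most alike over the 10 sums, the 8 highest in cells with a UMI, and 4 per list by size; Plau, Hdac9, Mgp and Sfrp1 were named after their values were seen. The size rule was tested on simulated counts. Clusters were made with leidenalg 0.10.2 on 2000 variable genes without the 4, 30 components and 15 neighbours. TMM factors came from edgeR 4.0.16 and served as an alternative only. Alternatives covered scaling, pseudocount, filters, doublets, thinning, marker rule, scores and clusters.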

Additional observations from a re-analysis of the deposited data

Results flagged for a closer look

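Aplnr was lower in aKO general capillary cells (log2 ratio -1.11) and higher in aKO arterial cells (log2 ratio 1.79), so the difference between the libraries ran in opposite directions in these classes. With 1 library per group the difference between the classes was not tested. Of the Aplnr UMIs of aKO arterial cells, 93.5% lay in cells of cluster 3, which is 99.6% aKO, and in arterial cluster 12, shared by both libraries, Aplnr had 1.55 CPM (aWT) and 2.16 CPM (aKO).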

How the results depend on the processing

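No paired analysis was possible because each group has 1 library. All 11 ratios of the 4 genes that were past 2-fold kept their direction and stayed past 2-fold in all 100 alternative values, and the 6 ratios within 2-fold stayed within it in 60 alternatives, 57 of them in the same direction. These totals include values that could not change. Endothelial-like cells were chosen before scoring, so scaling the scores within each library left their ratios as they were. In endothelial-like cells, values outside the counting interval were as follows on the log2 scale. The mean over cells gave -2.66 for Esm1, -0.50 for Apln, -0.97 for Aplnr and 1.41 for Plaur. Equal class weights gave -2.45, -0.13, -0.27 and 1.34. A pseudocount of 1 CPM gave -3.55 for Esm1, -0.80 for Apln and -0.92 for Aplnr. Thinning to 2000 UMIs gave -0.51 for Apln and 1.40 for Plaur, TMM factors 1.17 for Plaur and clusters in place of marker UMIs -2.97 for Esm1. By class, Esm1 in arterial cells was -4.36 under the stricter marker rule, -4.43 with clusters and -4.55 with scores scaled within each library, which also gave -1.99 for Esm1 in general capillary cells. With mixed cells put in their leading class the aerocyte ratios were -0.56 for Apln and 1.02 for Plaur, and the venous ratio of Plaur 1.76. Plaur in venous cells was 1.10 with clusters and 1.36 with scores scaled within libraries, and clusters gave 1.75 for Plaur in arterial and -0.32 for Aplnr in venous cells. Scaling within libraries, the marker subset, the mixed assignment, the shared barcodes and the depth minimum of 2000 UMIs were chosen after seeing the data. With a minimum of 50 CPM, 210 genes were higher and 152 lower in aKO, instead of 453 and 236. Depth limits what a share shows: thinned to 1000 UMIs, Esm1 was found in 3.87% of aWT and 0.748% of aKO general capillary cells.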

Other observations

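Cycling cells, with UMIs of at least 4 of 12 cycling markers, made up 0.171% of the endothelial-like cells of aWT (25 cells) and 1.57% of those of aKO (162 cells). In the aKO ones Plaur was at 157 CPM, Aplnr at 30.2 CPM, Apln at 21.9 CPM and Esm1 at 1.66 CPM, and in the aWT ones Plaur was at 89.9 CPM on 27 UMIs, with at most 4 UMIs of each of the other 3 genes. The mixed cells, which belong to no class, held 178 CPM of Esm1 in aWT against 7.14 CPM in aKO, and 96.2 against 392 CPM of Plaur. They were unlike cells: those between arterial and general capillary made up 41.6% of the mixed cells in aWT and 4.97% in aKO, and within them Esm1 was at 283 and 21.9 CPM.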
